A study of Mus musculus with 4 samples.

Results

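Cytosolic ribosomal protein genes code for the proteins that, together with ribosomal RNA, make up the small and large subunits of the ribosome. They were taken here by symbol, as genes named Rps or Rpl with a number, without the Rps6k kinases and without pseudogenes, and only from array probe sets that the platform annotation assigns to a single gene. This gave 47 genes of 18193 with such a probe set, and where a gene had several, the brightest on average over the 4 arrays stood for it. Of the 47, 44 exceeded the filter on low signal (the 30th percentile of the genes, an intensity of 20.4) and were tested. Rpl3l, Rpl39l and Rps16 did not. Of the 44 tested, 22 had Rpl symbols (large subunit) and 22 had Rps symbols (small subunit). Among the 22 Rps genes, the symbol rule also took in Rps19bp1, which codes for a protein that binds Rps19 and is no subunit of the ribosome. It left out ribosomal proteins with other symbols, such as Rpsa and Rplp0, and genes whose probe sets all carry several symbols, such as Rpl3, Rpl5 and Rpl10.

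The samples were total RNA of whole lung from B6/J mice, 2 wild type and 2 labelled IKKa floxed. IKKα, a kinase that acts in the NF-κB pathway, is the product of the gene flanked by loxP sites in the floxed mice. Mice of both groups were given adenovirus with Cre recombinase into the trachea, and lungs were collected 4 months later, so exposure to virus and Cre was shared. Cre from such a virus acts only in the cells it enters, so a whole lung holds cells with and without the deletion. Each sample was hybridised to 1 Affymetrix array. Nothing in the labels says whether the samples of a group were separate animals, so the p-values rest on the spread between arrays, and that spread may be technical. In whole lung, a difference in the cells present and a difference in RNA per cell cannot be told apart.

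A ribosome needs 1 copy of nearly every one of these proteins, and mammalian cells make them in step. Their mRNAs are short, abundant, and share a terminal oligopyrimidine tract, a run of C and T bases that begins with C at the first transcribed base, through which mTOR signalling and the protein Larp1 set how strongly they are translated. Cells that grow, divide or secrete much protein, such as activated lymphocytes and plasma cells, are rich in ribosomes.

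The start sites are shown because this tract is the sequence that the family shares. Among the 41 of 47 genes with an entry in the RefSeq promoter table (GRCm38.p6), 7 had a C followed by at least 4 C or T bases at an annotated start, which is 17.1%, against 3.01% of the 27025 genes in the table. When such a run (read on the transcribed strand) was allowed to lie anywhere from 20 bases before to 25 bases after an annotated start, it was present for 33 of 41 genes (80.5%) and for 53.3% of all genes in the table. The 30 bases around these 7 starts are given 5′ to 3′ on the gene's strand, 15 before and 15 from the first transcribed base on, with the pyrimidine run from the start in capitals. Rps27l and Rpl39 follow for comparison, since the former was nearly level between groups and the latter had the highest log2 fold change, and neither has the run at the start shown.
Rpl14 (chr9:120571502-120571531, plus strand): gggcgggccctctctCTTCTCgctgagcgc
Rpl35 (chr2:39005117-39005146, minus strand): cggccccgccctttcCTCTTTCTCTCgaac
Rpl38 (chr11:114668565-114668594, plus strand): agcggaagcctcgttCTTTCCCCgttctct
Rps6 (chr4:86857353-86857382, minus strand): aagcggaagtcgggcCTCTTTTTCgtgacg
Rps10 (chr17:27635230-27635259, minus strand): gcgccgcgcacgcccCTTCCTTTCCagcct
Rps18 (chr17:33955651-33955680, minus strand): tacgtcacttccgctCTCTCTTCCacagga
Rps27 (chr3:90213634-90213663, minus strand): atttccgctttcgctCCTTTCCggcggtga
Rps27l (chr9:66946071-66946100, plus strand): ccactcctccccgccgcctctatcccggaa
Rpl39 (chrX:37085208-37085237, minus strand): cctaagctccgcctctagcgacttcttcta
A match describes the letters at an annotated start and is not evidence of control. The 7 genes with the tract at the start had a median log2 fold change of 0.25 (floxed minus wild type, values from 0.02 to 0.31), and the 31 other tested genes in the table had a median of 0.18 (values from -0.0020 to 0.49). After quantile normalization the medians were 0.04 and 0.0054. This split rests on the exact annotated start. Within the wider window 33 of 41 genes had such a run, so a gene among the 31 others may still carry the tract.

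Of 12735 genes tested, 222 passed the limma threshold (adjusted p under 0.05), 128 higher and 94 lower in floxed lungs, and 178 and 82 when arrays were scaled to a common median. The groups also differed in sex-linked genes. Xist, which shuts down an X chromosome in females, had intensities of 31.8 and 22.9 in wild type, against 4246 and 4629 in floxed lungs, and the Y-linked Eif2s3y had 519 and 530 against 3.77 and 6.14, so genotype and sex pattern cannot be told apart. The 3′ to 5′ ratio of the Gapdh control probes, which increases as RNA breaks down, was 1.18 and 1.10 in the wild type samples but 1.44 and 1.68 in the floxed ones. The same ratio for actin was 2.65 and 2.46 against 2.67 and 2.77.

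On the deposited scale, most ribosomal protein genes had a small positive log2 fold change in the floxed lungs, the bright probe sets more than the dim ones, and none passed the test. The median log2 fold change over the 44 genes was 0.20, or 1.15-fold, with the middle of the genes between 0.07 and 0.25 (quartiles) and the ends at -0.59 for Rps4l and 0.49 for Rpl39, against a median of 6.15e-05 over all genes tested. Of the 44, 42 lay above 0 and 2 below, while 50% of all genes lay above 0. In limma with Benjamini-Hochberg adjustment over all genes, 0 members were called, against 1.74% of all genes. This background was 1.01% for calls higher in floxed lungs and 0.738% for calls lower. Without adjustment, 2 members (Rps4l and Rpl39) had p under 0.05, against 14.3% of all genes. Both floxed arrays exceeded both wild type arrays for 31 of the 44 members, against 23.6% of all genes, and both lay below for 1 member, against 22.2%. In either direction together, the groups did not overlap for 45.7% of all genes. Standard errors ran from 0.12 to 0.25 with a median of 0.13, so a difference of the size of the median was not separable from 0 for a single gene with 2 arrays per group. For the 33 members with a mean intensity of 1000 or more, a limit chosen after the values were seen, the 95% intervals lay between -0.31 and 0.62.

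The small difference depended on how the arrays were scaled. After quantile normalization, which gives every array the same distribution of intensities, the median of the 44 genes was 0.02, with 26 genes above 0, 17 below and 1 at 0, beside 0.01 for all genes. Groups did not overlap for 6 members higher and 6 lower, against 25.1% and 19.9% of all genes on that scale (44.9% in either direction). On that scale limma called 0 members, with 2 at an unadjusted p under 0.05, against 1.81% of all genes called, 1.18% higher and 0.636% lower. With cyclic loess the median was 0.07, and with each array scaled to a common median it was 0.28, beside 0.02 and 0.07 for all genes. The large and small subunit genes (the latter with Rps19bp1) had medians of 0.19 and 0.21 on the deposited scale and 0.02 and 0.0019 after quantile normalization. On the latter scale, 15 large subunit genes lay above 0 and 6 below, and 11 small subunit genes lay on each side. The difference between the subunits was not tested.

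**Figure D1:**
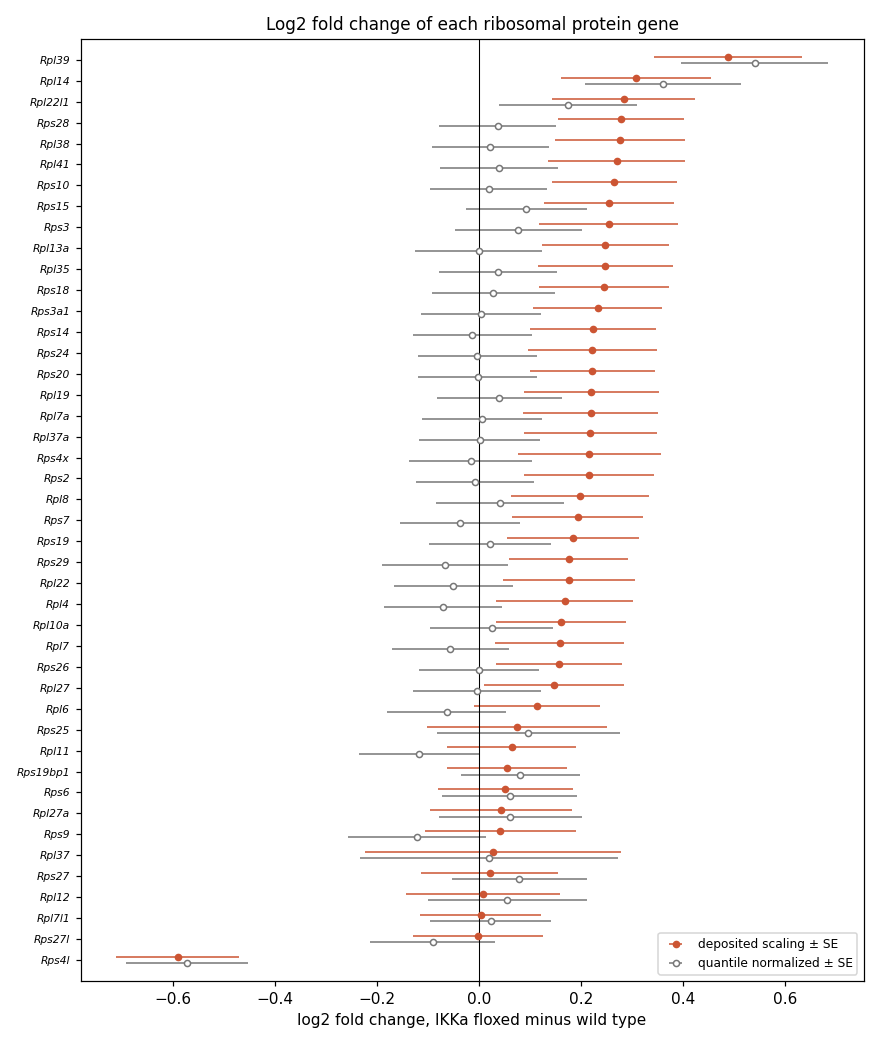
Log2 fold change (IKKa floxed minus wild type, horizontal axis) of the 44 tested ribosomal protein genes, in order of the deposited value, with bars of 1 SE from limma; filled points are deposited scaling and open points quantile normalization. Most filled points lie near 0.2 and most open points near 0, while Rps4l and Rpl39 stay at the ends on both scales.

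The arrays of 1 group also differed from each other in the same genes. Relative to each gene's wild type mean, the median of the 44 members was 0.06 on wild type array 1 and -0.06 on wild type array 2, 0.27 on floxed array 1 and 0.11 on floxed array 2. Floxed array 1 was therefore the highest array and wild type array 2 the lowest. Among the 33 brighter members, 32 were higher on wild type array 1 than on wild type array 2, by a median of 0.12, and 32 were higher on floxed array 1 than on floxed array 2, by a median of 0.14. The difference between groups in these 33 had a median of 0.22, so arrays of a group lay apart by an amount of the same order. Without floxed array 1 the median of the 44 members was 0.11, and without wild type array 2 it was 0.14. After quantile normalization the 4 array medians lay between -0.03 and 0.03.

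**Figure D2:**
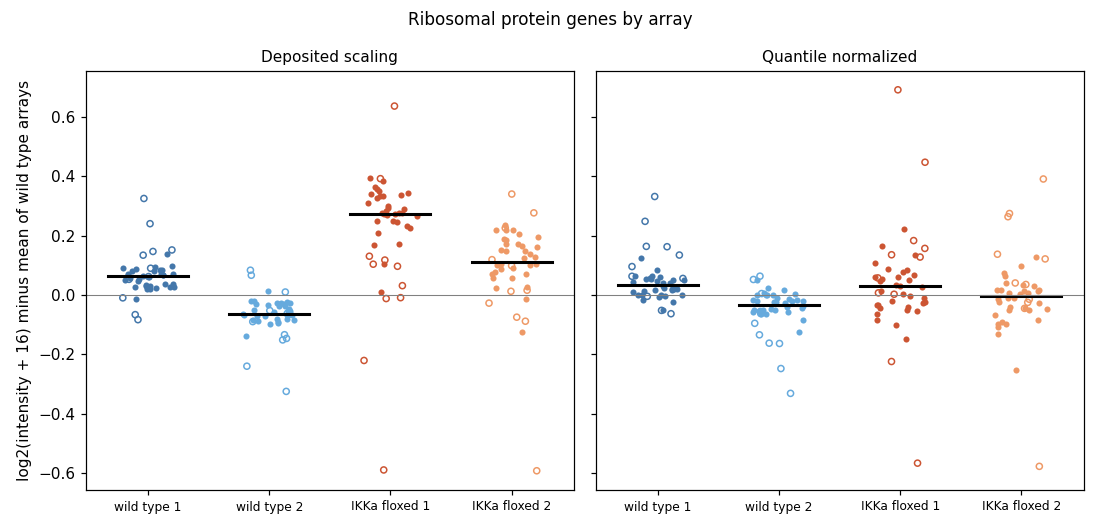
Each point is 1 ribosomal protein gene on 1 array, as log2(intensity + 16) minus the mean of the wild type arrays (vertical axis), for deposited scaling (left) and quantile normalization (right); open points are genes with a mean intensity under 1000 and black bars are medians of 44 genes. On the left the medians are 0.06, -0.06, 0.27 and 0.11, and on the right all 4 lie within 0.03 of 0.

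Small subunit proteins that touch the mRNA are described first. Rps3, which lines the channel where mRNA enters, had intensities of 5621 and 5422 in wild type, against 7203 and 6027 in floxed lungs. Both floxed arrays were above both wild type arrays, floxed array 1 by the larger margin (log2 fold change 0.25 ± 0.14 SE, adjusted p = 0.468). Rps2, its neighbour at the channel, had 6783 and 6534 against 8256 and 7253 (0.22 ± 0.13 SE, adjusted p = 0.511), and Rps15, which reaches towards the decoding centre, 6085 and 5359 against 6996 and 6641 (0.25 ± 0.13 SE, adjusted p = 0.437). Rps26, on the side where mRNA leaves, had 4471 and 4193 against 5069 and 4602 (0.16 ± 0.12 SE, adjusted p = 0.630). In all 4 genes both floxed arrays were above both wild type arrays, as for 31 of the 44 members and 23.6% of all genes. After quantile normalization their log2 fold changes were 0.08, -0.0079, 0.09 and -0.00023. A second bright probe set of Rps15 did overlap, with 5459 and 5703 against 6512 and 5588.

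Genes that are mutated in Diamond-Blackfan anaemia, an inherited failure of red cell production, were tested for 6 of 9 listed. Rps19, the first gene found mutated in that disease, had intensities of 6318 and 5740 in wild type, against 7248 and 6470 in floxed lungs (0.18 ± 0.13 SE, adjusted p = 0.582). Rps10 had 10051 and 9623 against 12407 and 11273 (0.27 ± 0.12 SE, adjusted p = 0.399). Rps24 stood at 9078 and 8223 against 10521 and 9661, and Rps7 at 7788 and 6906 against 8727 and 8067. By the probe set that stood for it, each of these 4 genes was higher on both floxed arrays (23.6% of all genes were), while the groups overlapped for Rpl11. Other bright probe sets did not all repeat this. Another of Rps24 had 8378 and 6712 against 7695 and 7727, and another of Rps7 had 7389 and 6472 against 7274 and 7312, both with overlap. So did a further probe set of Rps24, with 6782 and 5708 against 5991 and 6615. A probe set of Rps10 with 1480 and 779 against 733 and 1268 also overlapped (log2 fold change -0.15). The remaining bright probe sets of Rps10 and Rps24 lay higher on both floxed arrays. With Rps26 and Rpl11 the 6 tested genes of this list had a median of 0.19, or -0.0018 after quantile normalization. None of the 6 passed limma's test (1.74% of all genes did), and none had an unadjusted p under 0.05 (14.3% of all genes).

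The brightest small subunit probe sets followed. Rps29, a zinc-binding protein of the subunit head, gave the highest intensities of the family, 14910 and 14344 in wild type, against 16420 and 16645 in floxed lungs (0.18 ± 0.12 SE, adjusted p = 0.560). Here floxed array 2 was the higher of its pair, and after quantile normalization the value was -0.07. Rps28, also in the head, had 11236 and 10876 against 14109 and 12754 (0.28 ± 0.12 SE, adjusted p = 0.373). It had the highest log2 fold change of the small subunit and stood at 0.04 after quantile normalization. Rps18 and Rps20, both of the head, and Rps14 and Rps3a1 had log2 fold changes from 0.22 to 0.25 on the deposited scale and from -0.01 to 0.03 after quantile normalization. Rps9, which helps to place the early domains of the small subunit RNA, had 5237 and 4978 against 5909 and 4679, so floxed array 2 was the lowest of the 4 (0.04 ± 0.15 SE, adjusted p = 0.933). Rps6, the ribosomal protein phosphorylated when mTOR signalling is active, had 631 and 555 against 649 and 580, with overlapping groups (0.05 ± 0.13 SE, adjusted p = 0.905). Rps27 and Rps25 stood at 0.02 and 0.08, and their groups overlapped too. Rps19bp1 had 158 and 160 against 171 and 160 (0.05 ± 0.12 SE, adjusted p = 0.884).

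Among large subunit proteins, 4 genes of the tunnel through which the new chain leaves could be tested, and Rpl39, the highest of them, is described further below. Rpl4, which forms part of the tunnel wall, had 7501 and 6866 in wild type, against 8703 and 7474 in floxed lungs, where floxed array 2 fell just short of wild type array 1 (0.17 ± 0.13 SE, adjusted p = 0.635). Rpl35, at the tunnel exit, had 7425 and 6752 against 8990 and 7868 (0.25 ± 0.13 SE, adjusted p = 0.468), and Rpl19, near the exit, 6123 and 6228 against 7828 and 6621 (0.22 ± 0.13 SE, adjusted p = 0.522). The latter pair did not overlap between groups, and after quantile normalization they both stood at 0.04 while Rpl4 stood at -0.07.

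Rpl11, which carries the smallest ribosomal RNA into the subunit together with Rpl5 and binds the p53 regulator Mdm2, was among the lowest of the bright members. Its intensities were 5538 and 4918 in wild type, against 5611 and 5309 in floxed lungs, which overlap (0.06 ± 0.13 SE, adjusted p = 0.870). After quantile normalization both floxed arrays lay below both wild type arrays, at -0.12 ± 0.12 SE (adjusted p = 0.724). Rpl38, linked to translation of homeobox mRNAs in the embryo, had 11201 and 10448 against 13925 and 12343 (0.28 ± 0.13 SE, adjusted p = 0.399). Rpl41, the smallest protein of the ribosome, had 8846 and 8481 against 11382 and 9594 (0.27 ± 0.13 SE, adjusted p = 0.434). The groups did not overlap for Rpl38 and Rpl41, which stood at 0.02 and 0.04 after quantile normalization. Rpl13a, Rpl37a, Rpl7a, Rpl8, Rpl22, Rpl10a, Rpl7, Rpl27 and Rpl6 ran from 0.25 down to 0.11 on the deposited scale and from -0.06 to 0.04 after quantile normalization. Rpl14 had low intensities, 81.7 and 63.7 against 99.8 and 87.2, without overlap (0.31 ± 0.15 SE, adjusted p = 0.414), and stood at 0.36 ± 0.15 SE after quantile normalization (adjusted p = 0.355). Without wild type array 2 its value on the deposited scale was 0.16. Rpl14 has 1 probe set, which was dim, and its values bear on that probe set alone. Both floxed arrays exceeded both wild type arrays for 23.6% of all genes. Rpl12, Rpl27a and Rpl37 stood at 0.01, 0.04 and 0.03, and their groups overlapped. Rpl37 had the widest error of the family, with 918 and 579 in wild type, against 624 and 887 in floxed lungs.

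Rps4l departed from the rest of the family in direction and size. This gene, an autosomal relative of Rps4x on chromosome 6, had intensities of 414 and 379 in wild type, against 258 and 257 in floxed lungs. Both floxed arrays were well below both wild type arrays (log2 fold change -0.59 ± 0.12 SE, 95% interval -0.88 to -0.30, unadjusted p = 0.00191, limma adjusted p = 0.0756). It was 1 of 2 members below 0. The value was -0.57 after quantile normalization, and over all alternatives it ran from -0.65 to -0.51 with adjusted p from 0.0189 to 0.338. It passed with a pseudocount of 64 (adjusted p = 0.0210) and when the prior variance followed intensity and was fitted robustly (adjusted p = 0.0189). Its X-linked relative Rps4x, which carries the standard form of the protein, had 8285 and 7854 against 10329 and 8515 (0.22 ± 0.14 SE, adjusted p = 0.549) and stood at -0.02 after quantile normalization. Rps4l has 1 probe set, so no other probe set bears on its value.

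Rpl39, an X-linked gene for a short protein inside the exit tunnel, had the highest log2 fold change. This gene has 1 probe set, which was dim, while 33 members had a mean intensity of 1000 or more. The value bears on that probe set alone. Its intensities were low, 58.1 and 65.2 in wild type, against 105 and 82.2 in floxed lungs, with floxed array 1 highest and no overlap (0.49 ± 0.15 SE, 95% interval 0.14 to 0.83, adjusted p = 0.193). After quantile normalization it was 0.54 ± 0.14 SE (adjusted p = 0.157). Its adjusted p ranged from 0.10 to 0.567 over all alternatives. For Rpl39 and Rps4x, the X-linked members that could be tested, genotype and sex pattern cannot be told apart.

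Other members with a close relative stood at different places in the order. Rpl22l1, a relative of Rpl22, had 2918 and 2409 in wild type, against 3342 and 3127 in floxed lungs, without overlap (0.28 ± 0.14 SE, adjusted p = 0.428), and 0.17 ± 0.14 SE after quantile normalization (adjusted p = 0.633). Rpl22 itself had 7811 and 6974 against 8770 and 7936 (0.18 ± 0.13 SE, adjusted p = 0.604) and -0.05 after quantile normalization. The difference between these relatives was not tested. Rps27l, a relative of Rps27 that p53 can induce, had 2775 and 2422 against 2611 and 2568, with both floxed arrays between the wild type arrays (-0.0020 ± 0.13 SE, adjusted p = 0.996). Rpl7l1 had 514 and 477 against 492 and 501 (0.0033 ± 0.12 SE, adjusted p = 0.994), while Rpl7 had 7576 and 7230 against 8784 and 7771 (0.16 ± 0.13 SE, adjusted p = 0.633). Dimmer probe sets of Rpl7l1 differed from each other. The dimmest had 79.6 and 79.3 against 104 and 121 (log2 fold change 0.43), and another had 209 and 224 against 247 and 185 (-0.01). Rpl39l and Rpl3l, a form made in striated muscle, were below the filter and not tested. Rpl39l had 11.9 and 19.2 against 20.3 and 14.4, and Rpl3l lay between 3.81, on floxed array 1, and 18.1, on wild type array 2. The probe set of Rps16 gave 1.27 or less on each array, which bears on that probe set and not on the abundance of the mRNA.

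**Figure D3:**
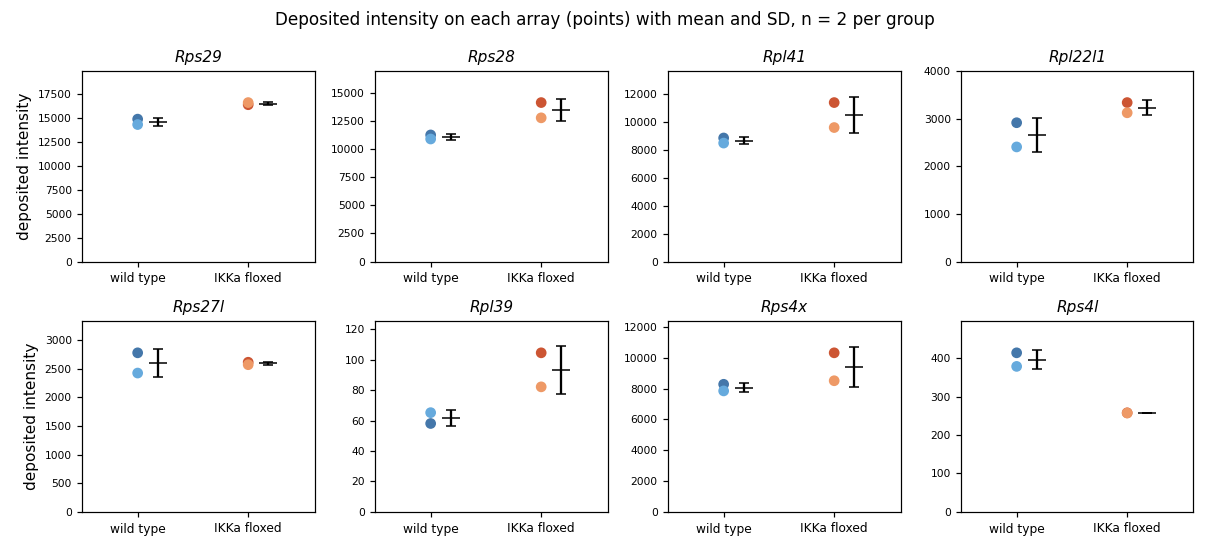
Deposited intensity (vertical axes, each starting at 0) of 8 ribosomal protein genes on the 2 wild type and 2 IKKa floxed arrays, with the mean and SD of each group beside the points (n = 2); darker points are array 1 of a group. Rps4l is lower on both floxed arrays (258 and 257, which overlie each other, against 414 and 379), Rps27l lies within the wild type range, and the other genes lie higher on both floxed arrays.

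The log2 fold change on the deposited scale moved with signal level, also outside the family. Among other genes, leaving out the named ribosomal proteins with other symbols, the median log2 fold change was -0.03 at a mean log2 level under 6 and -0.01 at 6 to 8. It was 0.08 at 11 to 12 (371 genes), 0.13 at 12 to 13 (109 genes) and 0.22 at 13 or more (31 genes, 29 of them above 0). Members at the same levels had medians of 0.14 (2 genes), 0.18 (18 genes) and 0.23 (13 genes). After quantile normalization, the medians at 12 to 13 and at 13 or more were -0.03 and -0.02 for other genes and -0.0022 and 0.0012 for members. Bright members therefore stood close to other genes of their level, as a description and without a test. The 33 members with a mean intensity of 1000 or more had a median of 0.22 on the deposited scale and 0 after quantile normalization, and the 11 members under 1000 had 0.04 and 0.06. The arrays themselves differed at the top, with 99.9th percentiles of 9305 and 8876 in wild type, against 11472 and 10282 in floxed lungs, while the medians were 33.7 and 34.2 against 32.1 and 32.0.

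The family makes up much of this bright range. Of 102 probe sets with a mean log2 level of 13 or more, 53 (52%) carried a ribosomal protein symbol of the rule, alone or among several, and of 377 at 12 or more, 127 (33.7%) did. Quantile normalization gives every array the same set of brightest values. The family fills much of that range, so this scaling can also remove part of a shift that the whole family shares. How much it removed was not tested. The median of the family ran from 0.02 to 0.28 over the scalings used, and these values do not settle where it lies.

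**Figure D4:**
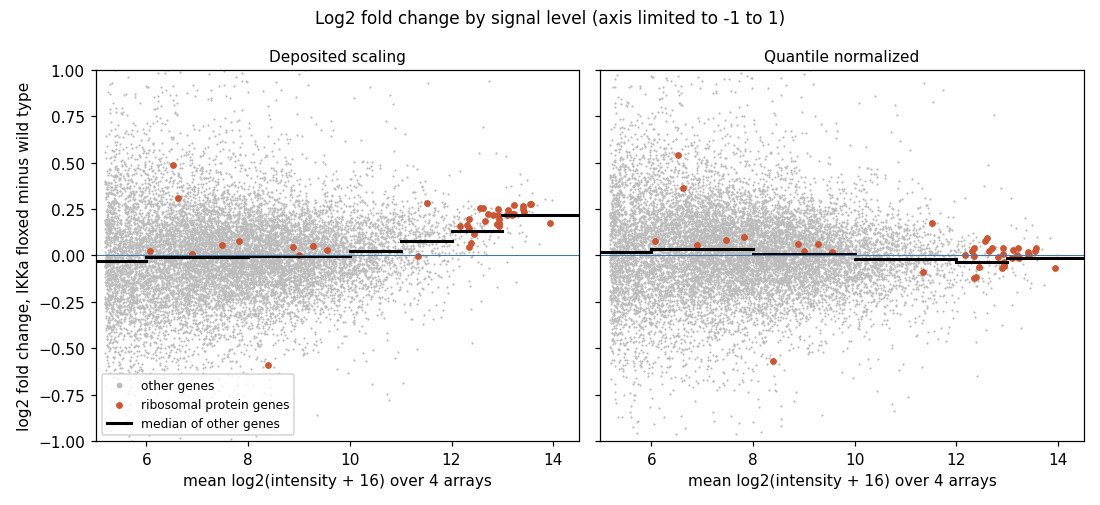
Log2 fold change (vertical axis, limited to -1 to 1) against mean log2(intensity + 16) over the 4 arrays, for other genes (grey, without named ribosomal proteins that have other symbols), ribosomal protein genes (red) and the median of other genes in each range of level (black), with deposited scaling (left) and quantile normalization (right). On the left the black medians climb from -0.03 to 0.22 and the bright members lie around them, and on the right both lie near 0.

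Single probe sets of a gene did not always give the same sign. The family had 102 probe sets with 1 symbol, and 20 genes had 2 or more that passed the level filter, of which 11 had values on both sides of 0. Rps10, for example, ran from -0.17 to 0.30 over 6 probe sets, Rpl41 from -0.32 to 0.27 over 4 and Rps9 from -0.28 to 0.04 over 3. Genes whose probe sets lay on 1 side included Rps28 (0.27 to 0.33 over 3), Rps29 (0.18 to 0.27 over 3) and Rpl13a (0.16 to 0.31 over 4). Among the 66 probe sets with a mean intensity of 1000 or more, 61 lay above 0 (median 0.20), and among the 36 dimmer ones 21 did (median 0.02). Another 109 probe sets carried several symbols with a ribosomal protein gene among them and were assigned to no gene. Of these, the 80 at 1000 or more had a median of 0.21 with 79 above 0, and of -0.0044 after quantile normalization. Of the 44 probe sets that stood for a gene, 14 were of the type that the array maker marks as prone to bind related transcripts (suffix _x_at), and ribosomal protein genes have many processed pseudogenes, so part of a signal may come from relatives. Those 14 had a median of 0.22, the 16 marked _a_at 0.21, the 2 marked _s_at 0.11 and the 12 with the plain suffix _at 0.05. After quantile normalization these medians were -0.0011, 0.01, -0.09 and 0.06. Most genes with low signal carry the plain suffix, and the part of the probe set type was not tested.

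Ribosomal proteins outside the symbol rule lay on the same side on the deposited scale. Of 7 listed, 4 could be tested, none passed limma's test (1.74% of all genes did) and 2 had an unadjusted p under 0.05 (14.3% of all genes). Rpsa, a protein of the small subunit, had 6446 and 5956 in wild type, against 8211 and 7310 in floxed lungs (0.32 ± 0.13 SE, adjusted p = 0.324). Rplp0 and Rplp2, of the stalk that recruits elongation factors, had log2 fold changes of 0.21 and 0.32, and Fau, whose product is cleaved to a small subunit protein, of 0.33. For Rplp0 (SE 0.16) the groups overlapped, with 7462 and 7088 in wild type, against 9695 and 7335 in floxed lungs. Its value after quantile normalization was -0.02. The 4 tested genes had a median of 0.32, or 0.09 after quantile normalization, with 3 of them above 0 on the latter scale.

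The wider translation machinery, in 5 lists of function, also held no gene that passed limma's test. At an unadjusted p under 0.05 there was 1 initiation factor, 2 genes of RNA polymerase I, 2 regulators, and 0 genes in the lists for elongation and biogenesis, against 14.3% of all genes (1.74% called). Of 14 tested elongation factors and other genes with oligopyrimidine tracts, 13 lay above 0, with a median of 0.14 and 0.03 after quantile normalization. Eef1b2, Tpt1 and Eef2 had the highest values, 0.28, 0.27 and 0.27 (adjusted p = 0.526, 0.468 and 0.416). Eef1b2 (SE 0.17) had 3539 and 3253 in wild type, against 4834 and 3530 in floxed lungs, so floxed array 2 lay within the wild type range. Of 21 initiation factors, 16 lay above 0 (median 0.12, or 0.02 after quantile normalization), from -0.29 for Eif5b to 0.30 for Eif3d, a subunit that contacts mRNA. Of 38 ribosome biogenesis genes, 26 lay above 0 (median 0.06, or 0.06 after quantile normalization). Bysl, needed to assemble the small subunit, and Ltv1, an export factor of its precursor, stood at 0.29 and -0.29. Of 11 genes for RNA polymerase I and its factors, which make ribosomal RNA, 5 lay above 0 (median -0.0052), or 8 after quantile normalization (median 0.04), with Taf1c highest at 0.44 ± 0.17 SE (adjusted p = 0.316). Among 17 regulators the median was -0.07, or -0.05 after quantile normalization. Rheb, the activator of mTOR, stood at -0.34 ± 0.14 SE (adjusted p = 0.322) and Rps6kb2, a kinase of Rps6, at -0.38 ± 0.14 SE (adjusted p = 0.296). Rps6kb2 was dim, with 31.3 and 24.9 in wild type, against 20.5 and 15.2 in floxed lungs, near the filter at 20.4. Myc had 38.9 and 43.7 in wild type, against 79.5 and 41.1 in floxed lungs, high on floxed array 1 alone (0.37 ± 0.23 SE, adjusted p = 0.548).

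**Figure D5:**
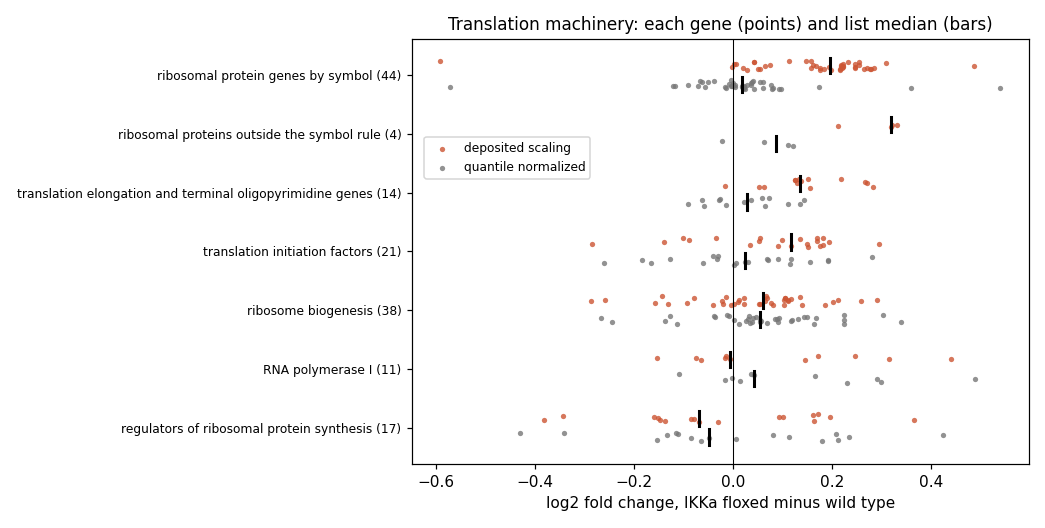
Log2 fold change (IKKa floxed minus wild type, horizontal axis) of each tested gene in lists of the translation machinery, with the number of genes in brackets, for deposited scaling (red) and quantile normalization (grey); black bars are list medians. The median of the ribosomal protein genes goes from 0.20 to 0.02 between the scales, and that of ribosome biogenesis genes stays at 0.06.

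Markers of other cells moved with the groups on the same arrays. Over all genes, 1.01% were called higher, 0.738% lower, and 14.3% had an unadjusted p under 0.05. Of 11 plasma cell markers tested, 4 were called higher and none lower, and 10 lay above 0. Their summed intensity was 8607 and 8351 in wild type, against 31256 and 31593 in floxed lungs. Most of that rise came from Jchain, Igha and Ighm, with means of 499, 704 and 128 against 6672, 9030 and 7937. Sdc1, a bright marker of this list, was lower, with means of 2405 against 2089 (log2 fold change -0.19). Of 8 T cell markers tested, 4 were called higher, with sums over the 10 measured markers of 430 and 417 against 996 and 770, although Cd4 and Cd3e were below the filter. Of 10 tested markers of monocytes and macrophages, 4 were called higher, with sums of 4078 and 4030 against 6188 and 5504. Limma called 0 of 7 B cell markers, with 2 at an unadjusted p under 0.05 and a median of -0.12. Of 12 cardiac muscle markers, 10 were called lower, and their sums were 5025 and 7448 against 683 and 533. The lists for adipocytes (3 of 5 tested called lower), airway secretory and ciliated cells (5 of 12 called lower) and skeletal muscle (1 of 3 called lower) also held calls, and those for alveolar epithelium and endothelium held 0 of 10 and 0 of 9, with 2 and 0 at an unadjusted p under 0.05. After quantile normalization, 1 alveolar marker was called lower, the skeletal muscle call was lost, and calls higher numbered 6 for plasma cells and 5 for monocytes and macrophages. The alveolar markers that define lung tissue were abundant on every array, with sums from 53706 to 64989. The part of these cells, of sex or of RNA integrity in the values of ribosomal protein genes was not tested.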

How the data were processed

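Affymetrix array values of 4 lung samples were used, 2 wild type and 2 IKKa floxed, with groups and replicate numbers from the sample titles. The deposited table holds a linear intensity per probe set, and Affymetrix Expression Console is the program in the submitters' processing notes, with its version and algorithm not stated there. The mean with 2% trimmed from each end was 150.001 on all arrays, so values had been scaled before deposit. Of 45101 probe sets, 34945 had 1 symbol in the platform annotation, 932 had several, 9160 were not listed and 64 were controls. Per gene the probe set with the highest mean was kept, values were transformed as log2(intensity + 16), which understates changes of low genes, genes below the 30th percentile of level were left out, and 12735 genes were tested (limma 3.58.1, R 4.3.3, lmFit and eBayes, two-sided, Benjamini-Hochberg over all genes, threshold 0.05). The fit had 2 residual and 4.77 prior degrees of freedom. An exact permutation test of 2 against 2 arrays cannot go below p = 0.333 and was not used. The script was tested on simulated data. Named genes were all called members, the 8 highest and the 8 lowest by log2 fold change, fixed lists by function, and up to 3 genes of each wider list. Other members named in the text are there to account for the family. Members, lists and tests were chosen with earlier results of these data known. Alternatives were quantile, cyclic loess and median scaling (the last added after seeing the data), pseudocounts of 1 and 64, no filter, an intensity trend with robust prior, other choices of probe set, a replicate block and leaving out each array. The number of arrays limits the precision. The targeted gene is not analysed here.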

Additional observations from a re-analysis of the deposited data

How the results depend on the processing

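No ribosomal protein gene was called higher under any alternative run. The count called lower was 1 in place of 0 with a pseudocount of 64 and with a robust prior that follows intensity, in both cases Rps4l. The family's median log2 fold change moved from 0.20 to 0.019 with quantile normalization and to 0.071 with cyclic loess; it ran from 0.11 to 0.27 when single arrays were left out and was 0.28 with median scaling. The labels do not say that a replicate number pairs samples, and r was -0.00058 between the differences of numbered arrays across 12735 genes. In the family, 32 of 33 bright members were higher on array 1 than on array 2 in wild type, by a median of 0.12. In floxed lungs 32 of 33 were, by a median of 0.14. The exception was Rpl19 in wild type and Rps29 in floxed lungs. A limma fit with the replicate number as a block called 0 members and gave Rps4l an adjusted p of 0.125. All genes called numbered 222 in the reported fit, 69 with no filter, 104 and 357 with pseudocounts of 1 and 64, 387 with trend and robust prior, and 146 without wild type replicate 2. Single genes changed sign as follows, and the cause was not tested. With quantile normalization, Rpl11 stood at -0.12, Rpl22 at -0.051, Rpl4 at -0.071, Rpl7 at -0.056, Rps2 at -0.0079, Rps24 at -0.0033, Rps26 at -0.00023, Rps4x at -0.016, Rps7 at -0.038, Rps9 at -0.12, Rpl6 at -0.063, Rps29 at -0.066, Rps14 at -0.013, Rpl27 at -0.0041 and Rps20 at -0.0022. With cyclic loess, Rpl11 stood at -0.052, Rps9 at -0.072, Rpl6 at -0.0041 and Rps29 at -0.0078. The other alternatives were followed for the named members (29 genes). With the mean of all probe sets, Rpl27a was at -0.0069, Rps9 at -0.12 and Rps27l at 0.031. With probe sets other than _x_at or _s_at, Rpl41 was at -0.32, Rps24 at -0.19, Rps9 at -0.28 and Rps27l at 0.047, and with median scaling Rps27l was at 0.081. Leaving out single arrays gave Rpl11 values from -0.021 to 0.15, Rpl12 from -0.14 to 0.16, Rpl27a from -0.091 to 0.18, Rpl37 from -0.30 to 0.35, Rpl7l1 from -0.049 to 0.056, Rps27 from -0.075 to 0.12, Rps27l from -0.10 to 0.10 and Rps9 from -0.13 to 0.21.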

Other observations

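Genes for mitochondrial ribosomal proteins, which make up the separate ribosome of mitochondria, were taken by the symbols Mrpl and Mrps with a number. Of 76 tested, 50 lay above 0 (50% of all genes did) and limma called 0 (1.74% of all genes), with 4 at an unadjusted p under 0.05 (14.3% of all genes). They had a median log2 fold change of 0.05 on the deposited scale and 0.07 after quantile normalization. Their median intensity was 343, in the range where other genes moved little with level, and their median hardly moved between the scales. The array's 3′ control probe set for small subunit ribosomal RNA had intensities of 1699 and 2851 in wild type, against 2054 and 1898 in floxed lungs, so wild type array 2, the lowest of the 4 for ribosomal protein genes, was the highest for this control.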
